A study of Homo sapiens with 18 samples.

Results

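The CDK inhibitors and G1 cyclins are described here across mammary epithelial cells at different stages of an in vitro transformation. The set held 10 genes, chosen by name: CDKN1B and CDKN1C (CIP/KIP inhibitors), CDKN2B, CDKN2C and CDKN2D (INK4 inhibitors), CCND1 and CCND3 (D-type cyclins), CCNE1 and CCNE2 (E-type cyclins) and CCNG2 (a G-type cyclin). Of these, 9 had a probe set among the 19775 genes read on the arrays, and each was read by the probe set with the highest mean log2(intensity + 1) over the 18 arrays. Another 1, CDKN2C, was paired with no probe set in the annotation used and is named only. The 8 members above the low-value level (log2 3.93, an intensity of 14.3) were tested among 12171 genes, while CDKN2B lay under that level and was not tested.

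Expression was measured by Affymetrix HG-U133 Plus 2.0 arrays in 3 human cell lines. M1B26 was raised from MCF10A cells sorted for the receptor BMPR1B and treated with BMP2 and IL6, from which 3 soft-agar clones were expanded, so that it stems from few cells. MC26 came from unsorted MCF10A cells after long exposure to the same factors, and MCF10A-CT was the untransformed control in standard medium. Each line was profiled as CD10+ cells, CD10- cells (both sorted by flow cytometry on membrane CD10) and unsorted cells, with 2 biological replicates in each of the 9 groups. MC26 and M1B26 were kept in IL6 at 10 ng/ml and in BMP2, for which 1 label gives 5 ng/ml and the growth protocol 10 ng/ml. The medium of all 3 lines held insulin (10 µg/ml), EGF (20 ng/ml), hydrocortisone, cholera toxin and horse serum. All lines share the MCF10A background, non-malignant fibrocystic cells that the study describes as CDKN2A deleted and MYC amplified. Nothing states whether replicates came from separate sorts, so p-values measure the spread between these arrays.

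Passage from G1 into S phase is driven by cyclin-dependent kinases. D-type cyclins activate CDK4 and CDK6 in response to growth factors such as EGF, and E-type cyclins activate CDK2 near the G1-S boundary. Both kinase classes phosphorylate RB1, which then releases E2F factors that switch on S-phase genes, CCNE1 and CCNE2 among them. INK4 inhibitors bind CDK4 and CDK6, CIP/KIP inhibitors bind cyclin-CDK complexes more broadly, and CCNG2 is an unconventional cyclin linked to cell-cycle exit.

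Before any comparison, the arrays were checked against their labels. MME, the gene of CD10, read 1269 and 1021 in CD10+ cells, against 56.4 and 15.9 in CD10- cells of M1B26. In MC26 it read 69.8 and 90.7 in CD10+ cells, against 27.8 and 6.39 in CD10- cells, and in MCF10A-CT 48.3 and 65.0, against 9.73 and 11.3. The 2 groups did not overlap in any line, although MME passed the test in M1B26 only (5.19 ± 0.64 on the log2 scale, adjusted p = 0.000128; limma, SE). The epithelial markers KRT5 and KRT18 were above the low-value level on all 18 arrays, whereas KRT19 and CLDN4 were near or under it. Of 4 leukocyte and 5 endothelial markers read, PTPRC, CDH5 and VWF were under that level on all 18 arrays, and KDR was above it on 2. CD14, however, was above it on all 18 (129 to 445), as was PECAM1 (29.9 to 51.7), while ITGAM was above it on 17, TEK on 14 and CD3E on 9. Their part in the member values was not tested. Replicate arrays correlated at 0.949 to 0.979. The unsorted replicate 1 arrays of M1B26 and MC26 differed from their replicate 2 arrays in cell-division genes: the mean log2 level of 17 G1-S phase genes, relative to all arrays, was -0.60 to -0.42 on those replicate 1 arrays and 0.42 to 0.67 on the replicate 2 arrays. Where leaving out both replicate 1 arrays, a setting added after the values were seen, changed a member's call or turned the sign of a difference named below, the value without 1 or both of them is given. The arrays measure bulk RNA, in which fewer cells with a transcript and less RNA per cell cannot be told apart.

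The levels fell into distinct ranges. CDKN1B, CCND3 and CCNG2 had group means that spanned 0.72, 0.91 and 0.78 on the log2 scale, the smallest spans of the 8 members tested. CCNE2 spanned 4.09 and CDKN1C 3.68, the largest. CDKN2D spanned 3.17, but 2 of its 9 group means lay near background, where the size of a difference is uncertain. CCND1 and CCNE1 spanned 1.92 and 1.70. The plot of all arrays shows these patterns side by side.

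**Figure D1:**
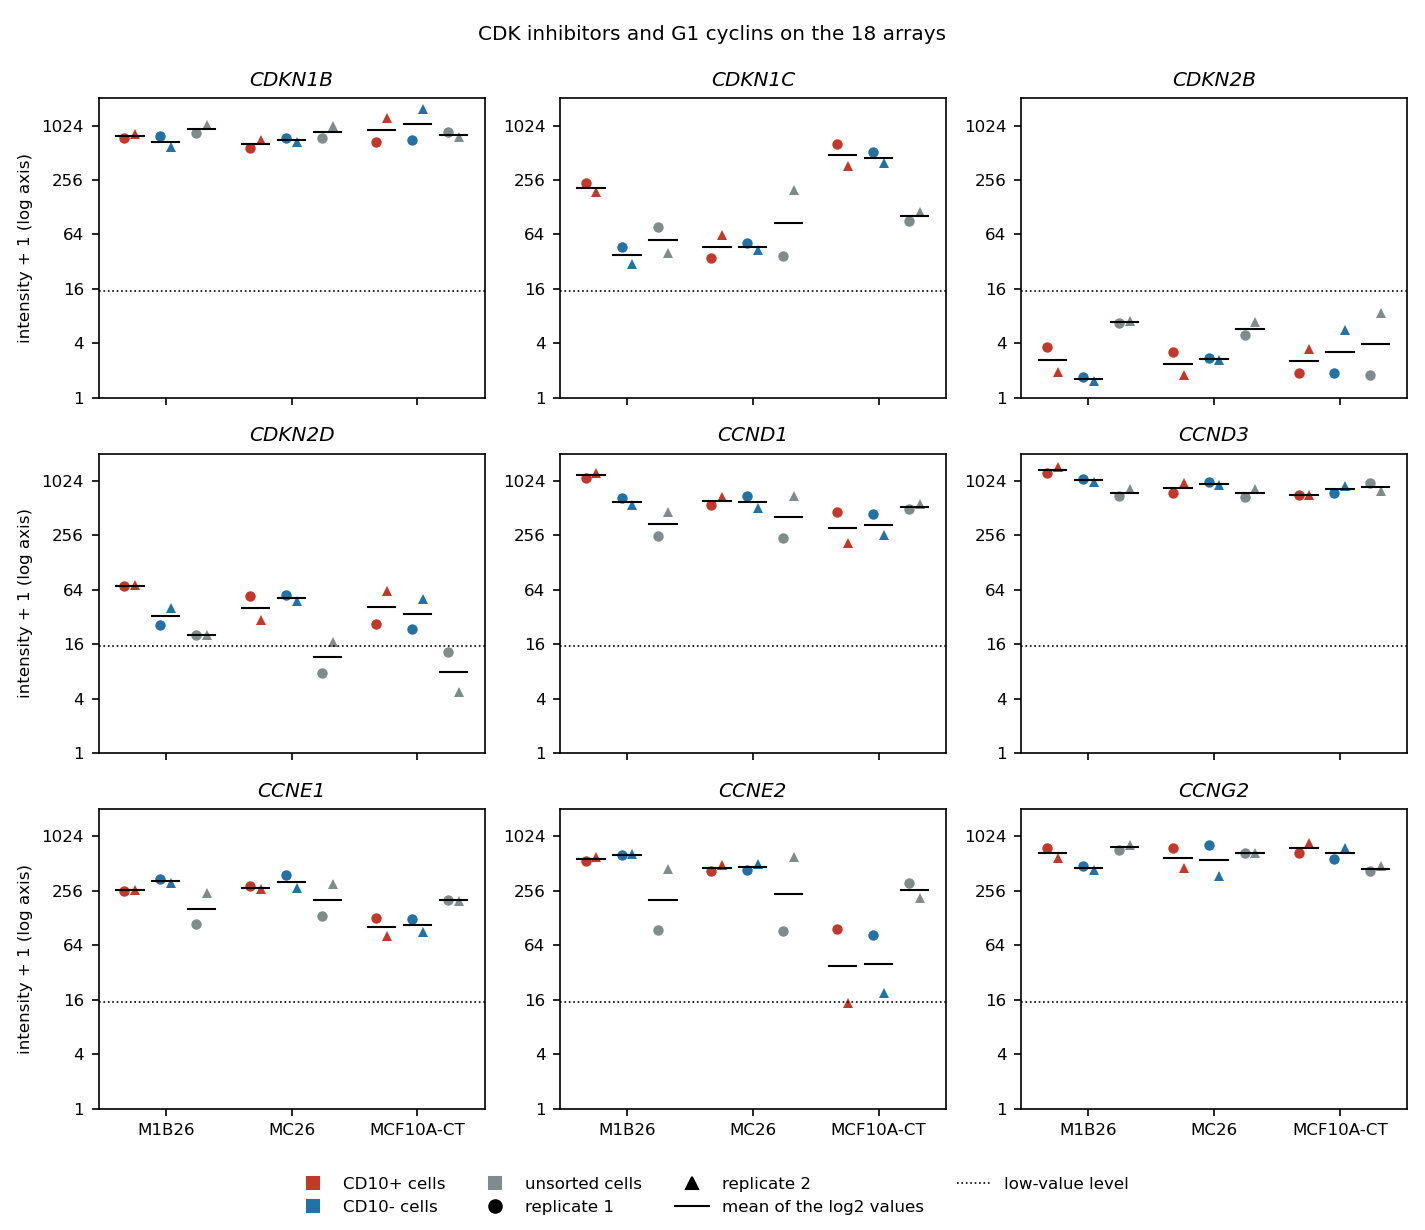
Intensity + 1 (log axis) of the 9 members read, for each of the 18 arrays; colours mark CD10+, CD10- and unsorted cells of each line, symbols the replicates, black bars the mean of the 2 log2 values and the dotted line the low-value level. By group mean CCNE2 is lowest and CDKN1C highest in the sorted MCF10A-CT cells, although CCNE2 on CD10+ MCF10A-CT replicate 1 lies above the unsorted replicate 1 arrays of M1B26 and MC26. CDKN1C stands higher in CD10+ than in CD10- cells of M1B26, and CDKN2B lies under the low-value level on every array.

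The comparison of lines asked which members differed between transformed and control cells. Averaged over the 3 populations, 5 of the 8 members passed the test in M1B26 against MCF10A-CT, where 34.6% of all genes passed. In MC26 against MCF10A-CT 3 of 8 passed, beside 31.2% of all genes. Both comparisons share the MCF10A-CT arrays. On these averages CCNE1 and CCNE2 were higher and CDKN1C was lower in both transformed lines. CCND1 and CCND3 were higher in M1B26, although no member passed in unsorted cells alone. The median average difference of the 8 members was 0.52 in M1B26 and 0.22 in MC26, against 0.19 and 0.08 for all genes tested. M1B26 values thus stand on a scale whose centre is itself shifted. With 8 members, counts of 5 and 3 against such shares of all genes say little about the members as a set. Without both unsorted replicate 1 arrays of M1B26 and MC26 the same 5 members passed in M1B26, with CCNE2 at 2.90, adjusted p = 0.000300, and 4 passed in MC26, where CCND1 was added.

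CDKN1C encodes p57, a CIP/KIP inhibitor that binds cyclin-CDK2 complexes. It read 238 and 185 in CD10+ cells, 45.3 and 29.5 in CD10- cells and 75.3 and 38.6 in unsorted cells of M1B26. In MC26 it read 33.9 and 62.2 in CD10+ cells, 50.0 and 41.5 in CD10- cells and 36.4 and 195 in unsorted cells. In MCF10A-CT it read 641 and 362 in CD10+ cells, 516 and 394 in CD10- cells and 89.4 and 112 in unsorted cells. The sorted MCF10A-CT arrays were thus all above every array of the transformed lines. Averaged over the populations, the log2 difference was -1.89 ± 0.33 (adjusted p = 0.000840) in M1B26 and -2.29 ± 0.33 (adjusted p = 0.000263) in MC26 against MCF10A-CT, 3.70-fold and 4.90-fold lower. Within populations CDKN1C fell in CD10- cells of M1B26 (-3.59 ± 0.57, adjusted p = 0.000939) and in CD10+ and CD10- cells of MC26 (-3.36 ± 0.57, adjusted p = 0.00378, and -3.28 ± 0.57, adjusted p = 0.00195). In CD10+ cells of M1B26 the difference was -1.19 ± 0.57 (adjusted p = 0.132) and did not pass, although both arrays lay under both MCF10A-CT arrays. These 5 falls that passed also passed in every alternative setting tried, including the omission of any single array, although the mean of the probe sets gave a smaller MC26 average (-1.49, adjusted p = 0.00108). The CD10+ difference of M1B26 passed as well when both unsorted replicate 1 arrays of M1B26 and MC26 were left out (-1.19, adjusted p = 0.0231). The 3 further CDKN1C probe sets above the low-value level gave differences of -2.27 to -1.31 in M1B26 and -1.99 to -1.56 in MC26, the same sign as the main probe set, and the array's naming marks all 3 as able to cross-hybridise.

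CDKN1B, which encodes p27 and restrains CDK2, and CDKN2D, which encodes the INK4 inhibitor p19, did not pass in any line comparison. CDKN1B ranged over 571 to 1555 on the 18 arrays, and its average difference was -0.22 ± 0.19 (adjusted p = 0.406) in M1B26 and -0.33 ± 0.19 (adjusted p = 0.212) in MC26 against MCF10A-CT. The 2 highest values, 1238 and 1555, were the replicate 2 arrays of CD10+ and CD10- MCF10A-CT cells. CDKN2D differed by 0.69 ± 0.33 (adjusted p = 0.119) in M1B26 and 0.36 ± 0.33 (adjusted p = 0.438) in MC26 against MCF10A-CT. A p that misses the threshold does not show that these levels were alike.

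CCND1, cyclin D1, is the main D-type cyclin of mammary epithelium. It read 1111 and 1247 in CD10+ cells, 661 and 553 in CD10- cells and 251 and 459.8 in unsorted cells of M1B26. In MC26 it read 554 and 677 in CD10+ cells, 702 and 507 in CD10- cells and 240.1 and 696 in unsorted cells. In MCF10A-CT it read 459 and 209.5 in CD10+ cells, 441 and 256 in CD10- cells and 505 and 562 in unsorted cells. The CD10+ cells of M1B26 were above all other groups. There CCND1 was 3.78-fold higher than in CD10+ cells of MCF10A-CT (1.92 ± 0.45, adjusted p = 0.00741), while the CD10- cells gave 0.85 ± 0.45 (adjusted p = 0.176). Without replicate 2 of CD10+ MCF10A-CT cells the CD10+ difference was 1.36, adjusted p = 0.112, and without replicate 2 of CD10+ M1B26 cells 1.84, adjusted p = 0.0640. The average over populations passed narrowly (0.71 ± 0.26, adjusted p = 0.0467). It did not pass after quantile normalization (0.46, adjusted p = 0.183) or centring (0.51, adjusted p = 0.133), nor when any array was left out other than M1B26 unsorted replicate 1, either MC26 unsorted array or replicate 1 of the CD10+ or CD10- MCF10A-CT cells, with differences of 0.52 to 0.75. The same difference also missed the threshold with the replicate block on all arrays (adjusted p = 0.0526), without the filter on low values (adjusted p = 0.0637) and without the intensity trend (adjusted p = 0.0711). In MC26 CCND1 gave 0.48 ± 0.26 (adjusted p = 0.178). Both averages passed, 0.85, adjusted p = 0.00748, in M1B26 and 0.73, adjusted p = 0.0181, in MC26, without both unsorted replicate 1 arrays of these lines.

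CCND3, cyclin D3, is the other D-type cyclin among the members. It read 1252 and 1451 in CD10+ cells, 1081 and 1004 in CD10- cells and 694 and 836 in unsorted cells of M1B26. In MCF10A-CT it read 708 and 721 in CD10+ cells, 749.7 and 904 in CD10- cells and 965 and 793 in unsorted cells, and the 6 MC26 arrays lay between 674 and 992. CD10+ cells of M1B26 were again the highest group, and the unsorted groups of the 3 lines overlapped. CCND3 was 1.88-fold higher in CD10+ cells of M1B26 than of MCF10A-CT (0.91 ± 0.20, adjusted p = 0.00472), a call lost without replicate 2 of CD10+ M1B26 cells (0.81, adjusted p = 0.0642) and for the mean of both probe sets (0.55, adjusted p = 0.312). It was smaller but passed after quantile normalization (0.51, adjusted p = 0.0260) and centring (0.56, adjusted p = 0.0322). The average over populations was 0.35 ± 0.11 (adjusted p = 0.0273), where the median of all genes was 0.19. It became 0.15, adjusted p = 0.257, after centring, 0.10, adjusted p = 0.372, after quantile normalization and 0.11, adjusted p = 0.743, for the mean of both CCND3 probe sets, of which the other lies under the low-value level. Leaving out 1 array ended that call in 6 cases, namely replicate 2 of unsorted or CD10+ cells or replicate 1 of CD10- cells, in M1B26 or in MCF10A-CT, with differences of 0.30 to 0.36.

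Markers of cell state also differed between the CD10+ cells in which CCND1 and CCND3 were called. Of 10 mesenchymal markers tested 9 were higher in CD10+ cells of M1B26 than of MCF10A-CT, of 6 luminal markers 4 were lower and 1 higher, and of 6 basal markers 3 were lower. Over all 12171 genes 2571 were higher and 648 lower in this comparison (26.4%), with a median difference of 0.31. Summed mesenchymal intensity was 26811 and 28503 in CD10+ M1B26 cells, against 7409.7 and 8206 in CD10+ MCF10A-CT cells. Summed luminal intensity was 4840.1 and 5127 in CD10+ M1B26 cells, against 9765 and 9482 in CD10+ MCF10A-CT cells, and the 2 groups did not overlap in either sum. The part of these markers in the CCND1 and CCND3 differences was not tested.

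CCNE2, cyclin E2, activates CDK2 at the G1-S boundary and showed the largest line difference of the members. It read 545 and 599.9 in CD10+ cells, 641 and 645 in CD10- cells and 93.0 and 443 in unsorted cells of M1B26. In MC26 it read 426 and 491 in CD10+ cells, 433 and 507 in CD10- cells and 91.2 and 606 in unsorted cells. In MCF10A-CT it read 96.4 and 13.7 in CD10+ cells, 81.3 and 18.1 in CD10- cells and 312 and 214 in unsorted cells. All 8 sorted arrays of the transformed lines lay between 426 and 645, and all 4 sorted MCF10A-CT arrays between 13.7 and 96.4. Averaged over the populations CCNE2 was 5.78-fold higher in M1B26 (2.53 ± 0.53, adjusted p = 0.00259) and 5.07-fold higher in MC26 (2.34 ± 0.53, adjusted p = 0.00450), and both calls held in every alternative setting. In CD10+ cells the differences were 3.92 ± 0.92 (adjusted p = 0.00723) for M1B26 and 3.60 ± 0.92 (adjusted p = 0.0190) for MC26, and in CD10- cells 4.02 ± 0.92 (adjusted p = 0.00619) and 3.57 ± 0.92 (adjusted p = 0.0155). The MCF10A-CT replicates themselves were far apart, and without replicate 2 of CD10+ MCF10A-CT cells the CD10+ differences were 2.56, adjusted p = 0.116, for M1B26 and 2.23, adjusted p = 0.241, for MC26. Without replicate 2 of CD10- MCF10A-CT cells the CD10- differences were 2.97, adjusted p = 0.0835, for M1B26 and 2.51, adjusted p = 0.185, for MC26. The within-population calls also missed the threshold, with differences of 3.45 to 3.85, without M1B26 CD10+ replicate 2 or without any 1 of the 4 sorted MC26 arrays. The other CCNE2 probe set gave average differences of 2.26 in M1B26 and 2.07 in MC26.

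CCNE1, cyclin E1, differed between lines in the same direction at lower amplitude. It read 253 and 264 in CD10+ cells, 348 and 311 in CD10- cells and 108 and 241 in unsorted cells of M1B26. In MC26 it read 287 and 268 in CD10+ cells, 379.6 and 271 in CD10- cells and 135 and 304 in unsorted cells. In MCF10A-CT it read 127 and 79.2 in CD10+ cells, 125 and 89.3 in CD10- cells and 204 and 197 in unsorted cells. Sorted arrays of both transformed lines were all above the sorted MCF10A-CT arrays. Averaged over the populations CCNE1 rose by 0.89 ± 0.22 (adjusted p = 0.00739) in M1B26 and by 1.02 ± 0.22 (adjusted p = 0.00374) in MC26 against MCF10A-CT, 1.85-fold and 2.03-fold. The MC26 call held in every setting, while the M1B26 call was lost for the mean of both CCNE1 probe sets (0.58, adjusted p = 0.113), the second of which lies under the low-value level. In CD10+ cells the differences were 1.35 ± 0.39 (adjusted p = 0.0197) for M1B26 and 1.46 ± 0.39 (adjusted p = 0.0235) for MC26, and in CD10- cells 1.63 ± 0.39 (adjusted p = 0.00777) and 1.59 ± 0.39 (adjusted p = 0.0117). The CD10+ calls were lost without replicate 2 of CD10+ MCF10A-CT cells (1.02, adjusted p = 0.193, for M1B26, 1.12, adjusted p = 0.219, for MC26) or without either CD10+ array of M1B26 or MC26 in its own comparison. The CD10- calls were lost without replicate 2 of CD10- MCF10A-CT cells (1.39, adjusted p = 0.0764, for M1B26, 1.36, adjusted p = 0.114, for MC26) or without replicate 1 of CD10- M1B26 or MC26 cells. All 4 calls within sorted populations were lost for the mean of both probe sets, with differences of 0.42 to 1.36. The CD10+ difference of M1B26 also missed the threshold after quantile normalization (1.05, adjusted p = 0.0650) and centring (1.00, adjusted p = 0.0691).

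Because CCNE1 is a textbook E2F target and differed in the same direction as S-phase genes here, its promoter is shown, from RefSeq on GRCh38.p14, chr19:29811741-29812040 on the plus strand, with the annotated start inside the window. Capitals mark the 6-letter core of E2F sites, TCCCGC, searched on both strands, which matched 3 times, 2 on the gene's strand and 1 on the other.
CCNE1: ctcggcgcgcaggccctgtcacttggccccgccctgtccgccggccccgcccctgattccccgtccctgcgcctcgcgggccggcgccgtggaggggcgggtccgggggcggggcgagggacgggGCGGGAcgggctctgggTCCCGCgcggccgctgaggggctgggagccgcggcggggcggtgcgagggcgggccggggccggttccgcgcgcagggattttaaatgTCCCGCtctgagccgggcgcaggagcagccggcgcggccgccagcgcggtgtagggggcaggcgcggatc
The core was present in 26.9% of 35116 RefSeq promoter windows of the same length. The 7 members with a window had 11 windows, of which 5 held the core, 1 each of CDKN1B, CDKN2C, CCND3, CCNE1 and CCNG2. The longer sites TTTCCCGC, TTTCGCGC, TTTGCCGC and TTTGGCGC, of which the first contains the core, were in 3.31% of all windows and in no member's window. A match is a description of letters, and no binding was measured.

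CCNG2 did not pass in any line comparison. It belongs to a gene signature picked by the study for higher levels in CD10+ cells, from the 4 sorted arrays of MCF10A-CT, so its direction there is no independent evidence. The average differences were 0.02 ± 0.18 (adjusted p = 0.958) in M1B26 and -0.02 ± 0.18 (adjusted p = 0.937) in MC26 against MCF10A-CT. In unsorted cells alone it read 721 and 832 in M1B26 and 668 and 673 in MC26, against 427 and 475 in MCF10A-CT. The differences were 0.78 ± 0.32 (adjusted p = 0.564) and 0.57 ± 0.32 (adjusted p = 0.751) and did not pass.

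Within populations, members passed in sorted cells only, a difference between populations that these counts do not test. It is tested by the comparisons between lines of sorted minus unsorted cells given further below. In CD10+ cells 4 of 8 members passed in M1B26 (26.4% of all genes) and 3 of 8 in MC26 (13.5%) against MCF10A-CT. In CD10- cells 3 of 8 passed in M1B26 (26.4%) and 3 of 8 in MC26 (20.0%). In unsorted cells no member passed in limma, beside 0.674% of all genes in M1B26 and 0.32% in MC26, and at an unadjusted p under 0.05 the counts were 2 of 8 in M1B26 and 0 of 8 in MC26. CCNE2 gave -0.35 ± 0.92 (adjusted p = 0.994) and -0.14 ± 0.92 (adjusted p = 0.997) in unsorted M1B26 and MC26, where its replicates were 93.0 and 443 and 91.2 and 606. In unsorted M1B26 cells CCND1 gave -0.65, CCND3 -0.20, CCNE1 -0.31 and CDKN1C -0.88. In unsorted MC26 cells CCNE1 gave 0.02 and CDKN1C -0.24. Without both unsorted replicate 1 arrays of M1B26 and MC26, CCNE1 in M1B26 turned to 0.27 and CDKN1C in MC26 to 0.95. The plot of line differences by population shows all 8 members. For CCNE2 the higher replicate of each transformed line lay above both unsorted MCF10A-CT arrays (312 and 214) and the lower replicate under them. Without both unsorted replicate 1 arrays, which are those lower ones, CCNE2 in unsorted cells turned to the other sign, 0.77, adjusted p = 1.00, in M1B26 and 1.22, adjusted p = 0.80, in MC26.

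**Figure D2:**
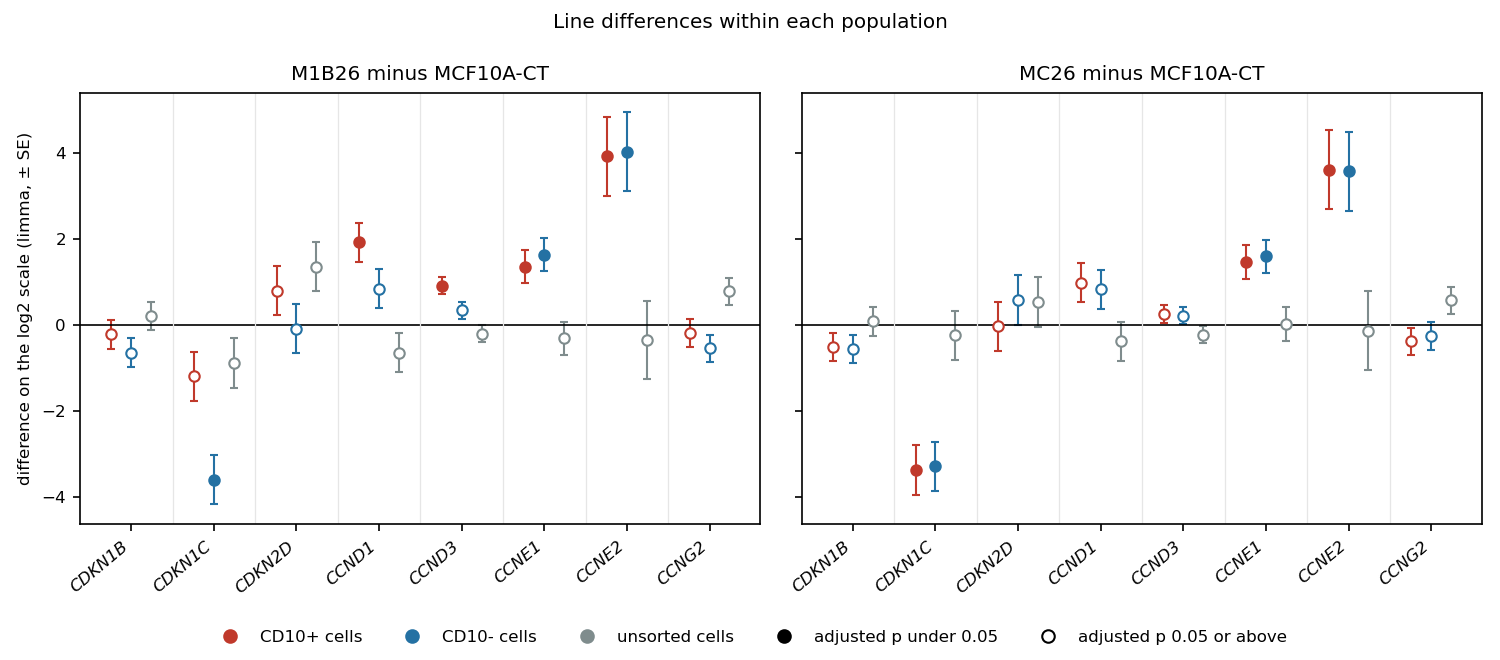
Log2 differences (limma, error bars SE) of M1B26 and of MC26 against MCF10A-CT for the 8 members tested, within CD10+, CD10- and unsorted cells; filled points have an adjusted p under 0.05. CCNE1 and CCNE2 lie above 0 and CDKN1C under 0 in sorted cells, and no point of the unsorted cells is filled.

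The 2 transformed lines were also compared with each other. Averaged over the populations no member passed in limma, beside 8.09% of all genes, and CCND3 had an unadjusted p under 0.05. In CD10+ cells CDKN1C was higher in M1B26 than in MC26 by 2.17 ± 0.57 (adjusted p = 0.0228) and CCND3 by 0.66 ± 0.20 (adjusted p = 0.0418), so that 2 of 8 members passed, beside 11.7% of all genes. CDKN1C gave 1.89, adjusted p = 0.0537, after centring and 1.94, adjusted p = 0.0549, after quantile normalization, and CCND3 gave 0.38, adjusted p = 0.184, after centring and 0.43, adjusted p = 0.0840, after quantile normalization. The mean of the probe sets gave 1.42, adjusted p = 0.0617, for CDKN1C and 1.12, adjusted p = 0.0842, for CCND3. The CCND3 call was also lost without the filter on low values (adjusted p = 0.0528) and without the intensity trend (adjusted p = 0.0628). Both calls were lost without CD10+ MC26 replicate 1 (CDKN1C 1.74, adjusted p = 0.215; CCND3 0.49, adjusted p = 0.314) and without either CD10+ M1B26 array, and the CCND3 call also without either CD10+ MCF10A-CT or CD10- MC26 array. In the same comparison 9 of 10 mesenchymal markers were higher in M1B26 (summed intensity 26811 and 28503 in M1B26, against 5729.9 and 6377 in MC26), 3 of 6 luminal markers were lower and 1 higher, and 2 of 6 basal markers were lower, and their part in the CDKN1C and CCND3 differences was not tested. In CD10- cells and in unsorted cells 0 of 8 members passed, also at an unadjusted p under 0.05, beside 0.0822% and 0.0986% of all genes.

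Between CD10+ and CD10- cells 1 member passed in M1B26 and none in MC26 or MCF10A-CT, and whether the lines differed in this was tested separately. In M1B26 CDKN1C was 5.62-fold higher in CD10+ than in CD10- cells, 238 and 185 against 45.3 and 29.5, a log2 difference of 2.49 ± 0.57 (adjusted p = 0.0147). It was the 1 member of 8 called, beside 6.5% of all genes. The 3 other CDKN1C probe sets above the low-value level gave 1.21 to 2.79, while the mean over all 5, with the fifth under that level, gave 1.60, adjusted p = 0.0507. Leaving out CD10+ replicate 1 (2.31, adjusted p = 0.124), CD10+ replicate 2 (2.67, adjusted p = 0.0655) or CD10- replicate 2 (2.19, adjusted p = 0.134) of M1B26 ended the call. In MC26 CDKN1C overlapped between CD10+ and CD10- cells (0.01 ± 0.57, adjusted p = 1.00), as it did in MCF10A-CT (0.10 ± 0.57, adjusted p = 1.00).

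Replicate numbers were taken to pair the CD10+ and CD10- arrays of a line, although no label says what a number shares. Deviations of replicate 1 from the group mean correlated between these arrays at only 0.184 in M1B26. The fit with the replicate as a block on the 12 sorted arrays stands beside these values. That fit has 3 residual degrees of freedom and takes a single trend of spread with intensity for all genes. Its p-values rest on that assumption and on the pairing. In it 4 members passed in M1B26: CDKN1C, CCND1 at 0.96 ± 0.20 (adjusted p = 2.60e-05), CDKN2D at 1.13 ± 0.34 (adjusted p = 0.00703) and CCNG2 at 0.55 ± 0.20 (adjusted p = 0.0335). CCND1 read 1111 and 1247 in CD10+ cells, against 661 and 553 in CD10- cells, without overlap, and without the block its adjusted p was 0.257. CDKN2D read 69.0 and 71.1 in CD10+ cells, against 25.4 and 39.1 in CD10- cells (1.13 ± 0.57, adjusted p = 0.310 without the block), and CCNG2 760.5 and 584, against 477 and 437 (0.55 ± 0.32, adjusted p = 0.390). The arrays of the 2 populations did not overlap for 7 of the 8 members in M1B26, namely higher in CD10+ cells for CDKN1C, CDKN2D, CCND1, CCND3 and CCNG2 and lower for CCNE1 and CCNE2, beside 53.7% of all genes. A count of 7 of 8 against that share is no result about the members. CCND3, CCNE1 and CCNE2 passed in neither fit (0.37 ± 0.20, adjusted p = 0.334, -0.35 ± 0.39, adjusted p = 0.706 and -0.17 ± 0.92, adjusted p = 0.953 without the block).

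In MC26 and in MCF10A-CT no member passed in limma, nor did any gene (0.0% in MC26 and 0.0% in MCF10A-CT), with 0 of 8 members at an unadjusted p under 0.05 in each. The replicate blocks called no member there either. The largest absolute member difference was that of CDKN2D in both, -0.37 ± 0.57 (adjusted p = 1.00) in MC26 and 0.24 ± 0.57 (adjusted p = 1.00) in MCF10A-CT. CCND3 read 708 and 721 in CD10+ cells of MCF10A-CT, against 749.7 and 904 in CD10- cells, at -0.20 ± 0.20 (adjusted p = 1.00). Whether the CD10 difference itself differed between lines was tested as a difference of differences. For CDKN1C the M1B26 difference exceeded that of MC26 by 2.48 ± 0.81 (adjusted p = 0.195) and that of MCF10A-CT by 2.39 ± 0.81 (adjusted p = 0.226), and neither passed. With the block on the sorted arrays CDKN1C passed in both (adjusted p = 2.90e-12 and 1.93e-11), as did CCND1 (adjusted p = 0.0150 and 0.00276), and CDKN2D passed against MC26 (adjusted p = 0.0223). Without the block 0 of 8 members passed in any of the 3 comparisons, beside 1.27%, 1.38% and, for MC26 against MCF10A-CT, 0.0% of all genes, with 1, 1 and 0 members at an unadjusted p under 0.05. Without both unsorted replicate 1 arrays of M1B26 and MC26, which enter only through the shared spread, CDKN1C passed in the first 2 (adjusted p = 0.0212 against MC26 and 0.0266 against MCF10A-CT).

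Markers of cell state moved with the CD10 sort in M1B26. Of 10 mesenchymal markers tested 7 were higher in CD10+ cells, and of 6 luminal markers 4 were lower and 1 was higher, while of 6 basal markers 3 were lower. Over all genes tested 458 were higher and 333 lower (6.5%). The summed intensity of all 12 mesenchymal markers was 26811 and 28503 in CD10+ cells, against 10151 and 8728 in CD10- cells. That of all 8 luminal markers was 4840.1 and 5127 in CD10+ cells, against 9782 and 10228 in CD10- cells, and that of the basal markers 11546 and 10913 in CD10+ cells, against 23647 and 19052 in CD10- cells. The CD10+ arrays of M1B26 thus differed from its CD10- arrays in all 3 lists without overlap. The part of these changes in the CDKN1C difference was not tested.

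Sorted cells were next compared with unsorted cells of the same line. Sorted cells had been stained and passed through the cytometer and unsorted cells frozen, so population and handling cannot be told apart. CDKN2D was the member called on average, with 1 of 8 passing beside 15.2% of all genes. It read 69.0 and 71.1 in CD10+ and 25.4 and 39.1 in CD10- cells, against 19.2 and 19.2 in unsorted cells of M1B26. In MC26 the sorted values were 53.1 and 28.4 and 54.9 and 46.6, against 6.72 and 15.9 in unsorted cells, and in MCF10A-CT 25.9 and 61.0 and 22.4 and 50.0, against 12.1 and 3.75. Every sorted array thus lay above every unsorted array of its own line. The average difference was 1.83 ± 0.29 (adjusted p = 0.000836), and it held in every setting in which CDKN2D was tested, while the unsorted means of MC26 and MCF10A-CT were near background. A larger pseudocount of 16 gave 1.07, adjusted p = 0.000689, and leaving out both unsorted replicate 1 arrays of M1B26 and MC26 1.64, adjusted p = 0.00756. The second CDKN2D probe set had the same sign but lies under the low-value level. Within lines the difference was 1.25 ± 0.50 (adjusted p = 0.188) in M1B26, 1.99 ± 0.50 (adjusted p = 0.0741) in MC26 and 2.25 ± 0.50 (adjusted p = 0.00628) in MCF10A-CT, where it became 1.52, adjusted p = 0.108, without unsorted replicate 2 and 1.18, adjusted p = 0.0105, with the larger pseudocount.

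In MCF10A-CT 3 of 8 members passed between sorted and unsorted cells, beside 22.2% of all genes. CDKN1C and CDKN2D were higher and CCNE2 was lower in sorted cells. CDKN1C read 641 and 362 in CD10+ and 516 and 394 in CD10- cells, against 89.4 and 112 in unsorted cells, 4.62-fold higher (2.21 ± 0.50, adjusted p = 0.00667). CCNE2 fell to 96.4 and 13.7 in CD10+ and 81.3 and 18.1 in CD10- cells, against 312 and 214 in unsorted cells (-2.75 ± 0.79, adjusted p = 0.0234). CCNE1 was also lower without passing (-0.96 ± 0.34, adjusted p = 0.0532; adjusted p = 0.0106 without both unsorted replicate 1 arrays of M1B26 and MC26), and CCND1 gave -0.72 ± 0.39 (adjusted p = 0.197). The CDKN1C call was lost without unsorted replicate 1 (2.05, adjusted p = 0.0774). The CCNE2 call was lost without unsorted replicate 1 (-2.48, adjusted p = 0.166), unsorted replicate 2 (-3.02, adjusted p = 0.0839), CD10- replicate 2 (-2.22, adjusted p = 0.0718) or CD10+ replicate 2 (-2.06, adjusted p = 0.0774).

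In M1B26 1 of 8 members passed between sorted and unsorted cells, beside 4.21% of all genes, and in MC26 0 of 8, beside 0.822%, with 1 of 8 (CDKN2D) at an unadjusted p under 0.05. The M1B26 call was CCND3 at 0.64 ± 0.17 (adjusted p = 0.0484), which rested on single arrays: it was 0.50, adjusted p = 0.443, without unsorted replicate 1 and 0.58 to 0.77, also lost, without any other array except the unsorted and CD10+ arrays of MC26 and the CD10- arrays of MCF10A-CT, and the mean of both CCND3 probe sets had the other sign (-0.24, adjusted p = 0.736). With all arrays kept, the CCND3 call was also lost after centring (0.51, adjusted p = 0.0586). It missed the threshold too without the filter on low values (adjusted p = 0.0589) and without the intensity trend (adjusted p = 0.0712). CCND1 gave 1.31 ± 0.39 (adjusted p = 0.0744) and CCNE2 1.57 ± 0.79 (adjusted p = 0.311) in M1B26, where the sorted arrays lay above the unsorted ones. In MC26 CCNE2 gave 0.97 ± 0.79 (adjusted p = 0.614) and CDKN1C -0.87 ± 0.50 (adjusted p = 0.444). Without both unsorted replicate 1 arrays of M1B26 and MC26 the M1B26 values were 0.87, adjusted p = 0.389, for CCND1 and 0.45, adjusted p = 0.932, for CCNE2. In MC26 CCNE2 then turned to -0.39, adjusted p = 0.935, and CDKN1C passed at -2.07, adjusted p = 0.0326. The plot of CD10 and sorting differences shows CCNE2 above 0 in M1B26 and MC26 and under 0 in MCF10A-CT with all arrays, and the MC26 sign turns without those 2.

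That contrast between lines was tested in the same fit by 3 further comparisons, chosen after the values were seen. The sorted minus unsorted difference of M1B26 exceeded that of MCF10A-CT for CCNE2 by 4.32 ± 1.12 (adjusted p = 0.0237), CCND1 by 2.03 ± 0.55 (adjusted p = 0.0283), CCNE1 by 1.80 ± 0.48 (adjusted p = 0.0250) and CCND3 by 0.83 ± 0.24 (adjusted p = 0.0386). These were 4 of 8 members, beside 11.9% of all genes. For MC26 against MCF10A-CT CDKN1C passed at -3.08 ± 0.70 (adjusted p = 0.0202), 1 of 8 beside 6.07% of all genes, and CCNE2 gave 3.72 ± 1.12 (adjusted p = 0.0631). The unsorted MC26 arrays read 36.4 and 195 for CDKN1C, and its value was -1.88, adjusted p = 0.0440, without MC26 unsorted replicate 2 and -4.27, adjusted p = 0.00202, without both unsorted replicate 1 arrays of M1B26 and MC26. Between M1B26 and MC26 0 of 8 passed, beside 0.0%, and CDKN1C had an unadjusted p under 0.05. Without both unsorted replicate 1 arrays of M1B26 and MC26 the M1B26 values were 3.20, adjusted p = 0.109, for CCNE2, 1.59, adjusted p = 0.10, for CCND1, 1.23, adjusted p = 0.108, for CCNE1 and 0.69, adjusted p = 0.219, for CCND3, and none passed. All 5 calls were also lost without either unsorted MCF10A-CT array: CCNE2 of M1B26 gave 4.05, adjusted p = 0.0977, without replicate 1 and 4.59, adjusted p = 0.0622, without replicate 2, and CDKN1C of MC26 -2.92, adjusted p = 0.0865, and -3.24, adjusted p = 0.0685. Without CD10+ replicate 2 or CD10- replicate 1 of M1B26 or CD10+ replicate 2 of MCF10A-CT, CCND1, CCNE1 and CCND3 did not pass either, with values of 0.77 to 1.99. CCND1 was also lost without MCF10A-CT CD10- replicate 2 (1.83, adjusted p = 0.0512), and CCND3 without M1B26 CD10+ replicate 1 or either CD10- MC26 array. Quantile normalization ended the CCND1 call (1.72, adjusted p = 0.0504) and the CCND3 call (0.53, adjusted p = 0.0649), centring also ended that of CCND3 (0.53, adjusted p = 0.108), and the mean of the probe sets ended that of CCNE1 (0.81, adjusted p = 0.365) and turned the sign of CCND3 (-0.55, adjusted p = 0.474).

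**Figure D3:**
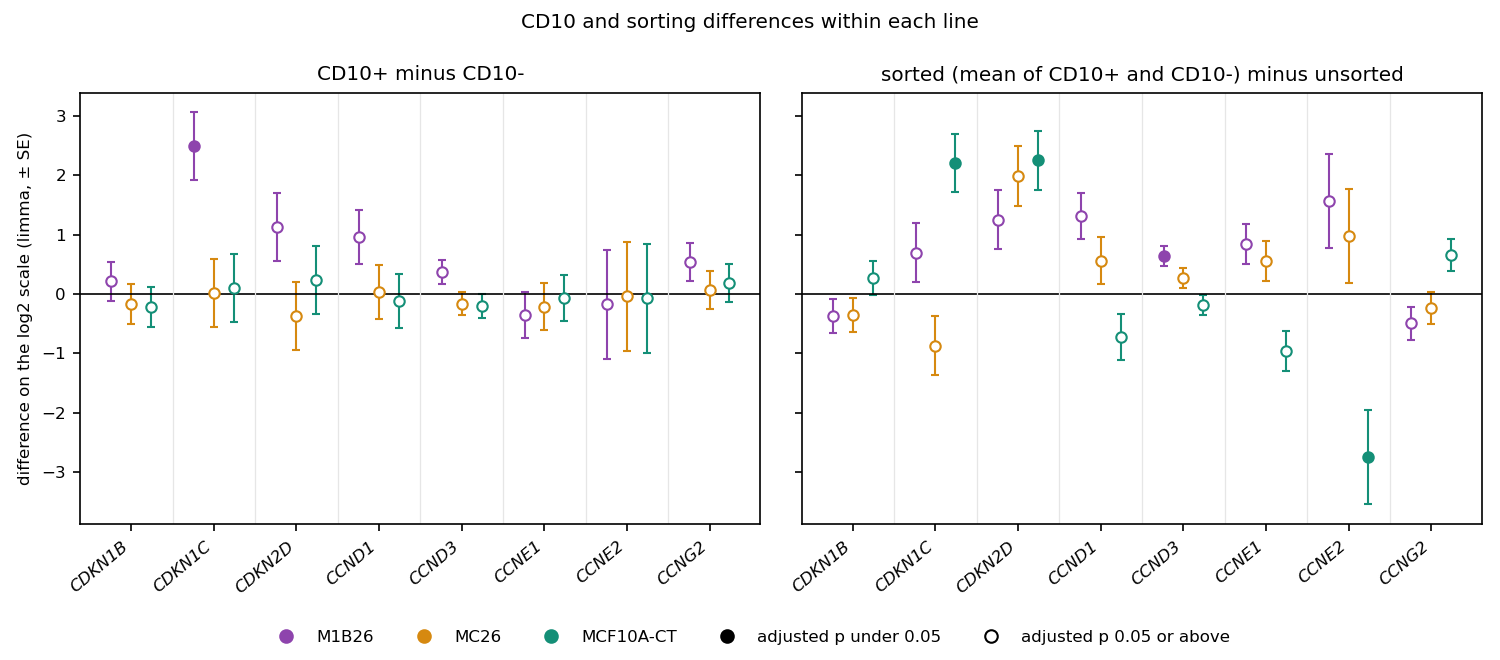
Log2 differences (limma, error bars SE) of CD10+ against CD10- cells and of sorted against unsorted cells, for the 8 members tested in each line; filled points have an adjusted p under 0.05. CDKN1C in M1B26 is the only filled point on the left, and CCNE2 lies under 0 in MCF10A-CT and above 0 in M1B26 and MC26 on the right, where the MC26 sign turns without the unsorted replicate 1 arrays of M1B26 and MC26.

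The remaining INK4 members gave no usable signal. CDKN2B, which encodes p15 and lies next to CDKN2A in the genome, read 0.540 to 7.72 on the 18 arrays, under the low-value level in all 9 groups, and its 2 probe sets were both near background. Values of that size have no order between groups. CDKN2C has no value here.

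The rest of the G1-S control pathway was read from a list of 42 genes (other cyclins and inhibitors, kinases, RB and E2F families, ubiquitin ligase parts and upstream factors), of which 41 were tested. Averaged over the populations 20 were higher and 3 lower in M1B26, and 17 higher and 6 lower in MC26, against MCF10A-CT, with median differences of 0.38 and 0.25. Over all 12171 genes, of which 34.6% and 31.2% passed, 3284 higher and 926 lower were called in M1B26 and 2396 higher and 1405 lower in MC26, so the lean of the list upwards is read beside that of all genes. After quantile normalization the M1B26 split was 11 higher and 5 lower in the list and 1692 higher and 1729 lower over all genes, and that of MC26 14 higher and 9 lower in the list and 1927 higher and 1982 lower over all genes. Centring gave 13 higher and 6 lower in the list and 1816 higher and 1710 lower over all genes in M1B26, and 16 higher and 7 lower and 2237 higher and 1884 lower in MC26. CKS1B, a partner of the ligase subunit SKP2 that targets p27, rose by 0.67 ± 0.10 (adjusted p = 0.000375) in M1B26 and 0.86 ± 0.10 (adjusted p = 8.84e-05) in MC26. CCNA2, cyclin A2, rose by 1.06 ± 0.18 (adjusted p = 0.000714) and 1.16 ± 0.18 (adjusted p = 0.000447), and E2F7, a repressor of the E2F family, by 0.97 ± 0.18 (adjusted p = 0.00114) and 1.43 ± 0.18 (adjusted p = 0.000104). FOXO3, a transcription factor that activates CDKN1B in other systems, was lower in MC26 at -0.80 ± 0.12 (adjusted p = 0.000371). The partner kinases were also higher in M1B26: CDK2 by 0.80 ± 0.19 (adjusted p = 0.00537), CDK4 by 0.46 ± 0.11 (adjusted p = 0.00571) and CDK6 by 0.56 ± 0.12 (adjusted p = 0.00241), with RB1 at 0.55 ± 0.13 (adjusted p = 0.00527). In MC26 the values were 0.90 ± 0.19 (adjusted p = 0.00320) for CDK2, 0.38 ± 0.11 (adjusted p = 0.0181) for CDK4, 0.46 ± 0.12 (adjusted p = 0.00815) for CDK6 and 0.56 ± 0.13 (adjusted p = 0.00562) for RB1.

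In unsorted cells 0 of the 41 pathway genes passed in limma in either line against MCF10A-CT, with 2 of 41 in M1B26 and 1 of 41 in MC26 at an unadjusted p under 0.05. Between sorted and unsorted MCF10A-CT cells 2 were higher and 15 lower (over all genes 801 higher and 1904 lower, 1371 higher and 1594 lower after quantile normalization), CDK2 at -1.47 ± 0.29 (adjusted p = 0.00317) and CDC25A, a phosphatase that activates CDK2, at -3.04 ± 0.56 (adjusted p = 0.00228) among those that were lower. Between CD10+ and CD10- cells of M1B26 2 were higher, FOXO1 by 2.72 ± 0.40 (adjusted p = 0.000538) and SMAD3 by 1.43 ± 0.28 (adjusted p = 0.00457), both upstream transcription factors, where 458 higher and 333 lower were called over all genes. Another 3 were lower, CDK6 at -0.85 ± 0.20 (adjusted p = 0.0174), CCND2 (cyclin D2) at -1.26 ± 0.30 (adjusted p = 0.0174) and E2F7 at -1.40 ± 0.31 (adjusted p = 0.0108). CCND1 did not pass in that comparison in the main fit (0.96, adjusted p = 0.257, limma). Its sign was opposite to that of CCND2, which was higher in CD10- cells.

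Genes of S phase and mitosis moved with the E-type cyclins. Averaged over the populations 15 of 17 G1-S phase genes and 18 of 18 G2-M phase genes were higher in M1B26 than in MCF10A-CT, and 16 and 18 in MC26. Between sorted and unsorted MCF10A-CT cells 16 of 17 and 18 of 18 were lower. All genes called in these comparisons made up 34.6%, 31.2% and 22.2%. After quantile normalization the counts were 15 and 16 in M1B26, 16 and 18 in MC26 and 15 and 18 lower in sorted MCF10A-CT cells. In unsorted cells 0 of either list passed in limma between a transformed line and MCF10A-CT. The mean log2 level of the G1-S genes, relative to all arrays, was 0.34 to 0.94 on the 8 sorted arrays of MC26 and M1B26, against -2.09 to -0.91 on the sorted MCF10A-CT arrays. Unsorted MCF10A-CT arrays stood at 0.34 to 0.48. In the plot of members against this level, the 4 sorted MCF10A-CT arrays were the lowest of all in this level and the highest in CDKN1C. The part of cell division in the CCNE1, CCNE2 and CDKN1C differences was not tested.

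**Figure D4:**
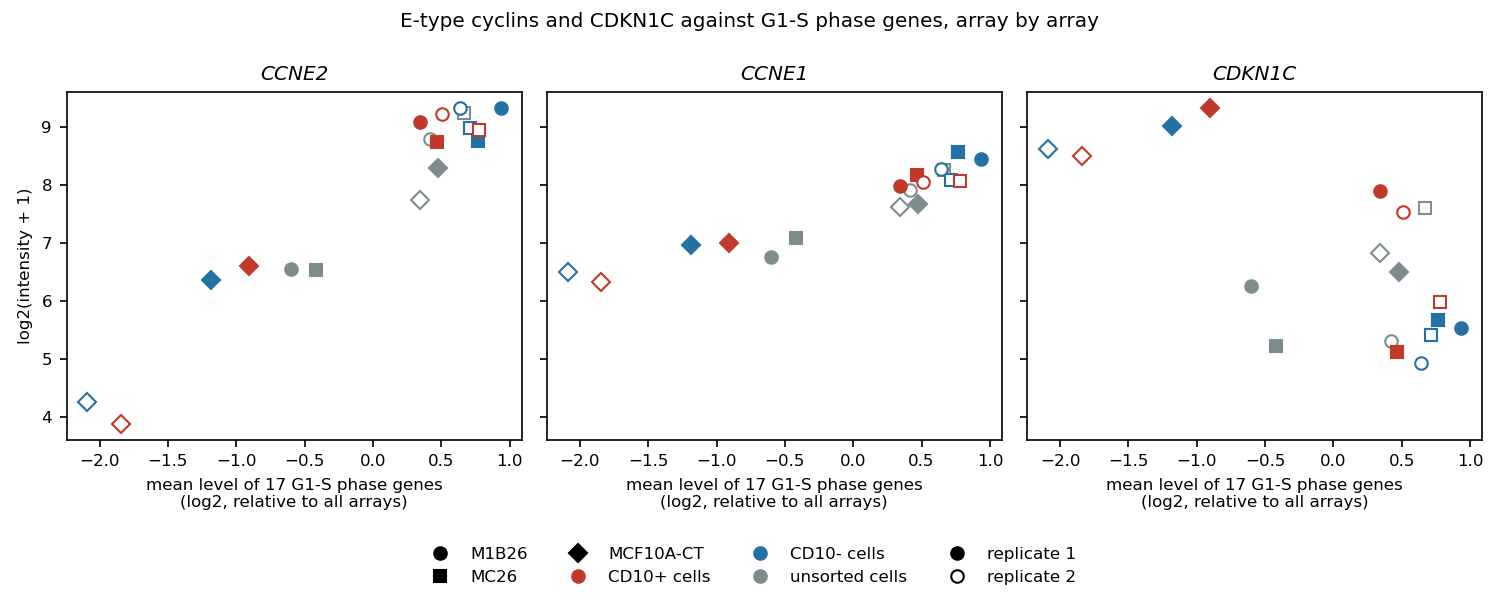
log2(intensity + 1) of CCNE2, CCNE1 and CDKN1C against the mean log2 level of 17 G1-S phase genes relative to all arrays, 1 point per array; symbols mark lines, colours populations and filled or open points replicates 1 and 2. The sorted MCF10A-CT arrays lie at the left, from -2.09 to -0.91, with low CCNE2 and CCNE1 and high CDKN1C.

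Across the 9 group means, as a description, the genes whose pattern was most like CDKN1C by Pearson's r were LGALS3 (r = 0.979), ASS1 (r = 0.977) and ZBTB16 (r = 0.975). For CCNE2 they were PSMC3IP (r = 0.998), CLN6 (r = 0.998) and TUBG1 (r = 0.997), and for CCNE1 EWSR1 (r = 0.998), ADRM1 (r = 0.998) and TOR3A (r = 0.995). For CCND1 they were AGAP2-AS1 (r = 0.987), CYB561A3 (r = 0.962) and PRXL2B (r = 0.961), and for CDKN2D LINC00963 (r = 0.968), MVP (r = 0.959) and ARPC3 (r = 0.958). The 9 means share lines and replicates, and such r values over few points carry no test. Among the members, CCNE1 and CCNE2 had r = 0.971, CCND1 and CCND3 r = 0.929, and CDKN1C r = -0.803 with CCNE2 and -0.809 with CCNE1.

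In the order of the groups, neighbours mostly overlapped. Only groups next to each other by mean were compared. CDKN1C stood highest in CD10+ and CD10- cells of MCF10A-CT, whose arrays overlapped, then in CD10+ cells of M1B26, apart from the next group on either side, and the 6 lower groups overlapped their neighbours. Replicate 2 of unsorted MC26 cells, a group further down, lay between the CD10+ M1B26 arrays. CCNE2 ran from CD10- and CD10+ cells of M1B26, through those of MC26 and the 3 unsorted groups, to the sorted MCF10A-CT cells, with 4 of 8 neighbouring pairs apart. Replicate 1 of CD10+ MCF10A-CT cells nonetheless lay above the unsorted replicate 1 arrays of M1B26 and MC26. CDKN2D had 3 of 8 pairs apart, CCND3 2, CCND1 and CCNE1 1 each, and CDKN1B and CCNG2 none, so their groups cannot be ranked beyond their spread.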

How the data were processed

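RNA of 18 samples (3 lines, 3 populations, 2 biological replicates each) was hybridised to Affymetrix HG-U133 Plus 2.0 arrays. The authors deposited 1 linear intensity per probe set and array, which the submitters' notes credit to Affymetrix Expression Console with MAS5 (versions not given in the sources used here), whereas the study's methods name RMA with quantile normalization. The deposited intensities share 1 median per array (16.7), with upper quartiles of 95.1 to 124, and were used as given, so differences in total RNA cannot be seen. Such MAS5 values keep noise near background, and the number of arrays limits the precision.

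Of 54675 probe sets (62 controls), 41091 were paired with 1 gene, 1801 with several and 11721 with none in the platform annotation used, and 54 of those with 1 gene had a gene number that the RefSeq table did not hold. Each gene was read by its probe set with the highest mean log2(intensity + 1). Genes whose mean log2(intensity + 1) over all arrays lay under the low-value level (log2 3.93) were left out, whatever their means in single groups. The 12171 genes left were fitted with limma 3.58.1 in R 4.3.3 (lmFit, then eBayes with an intensity trend; 9 group means; degrees of freedom 9 residual and 6.28 prior), as a two-sided test with Benjamini-Hochberg adjustment within each of 25 contrasts and a threshold of 0.05. Comparisons with MCF10A-CT share its arrays. Differences are on the log2(intensity + 1) scale, which understates the change of low genes. SEs are given for most differences of the main fit and not for most values under the alternatives. The median SE over genes was 0.296 for a CD10 difference within a line and 0.171 for a line difference averaged over populations. The scripts were tested on simulated data. Tables and figures used pandas 2.3.3, numpy 2.4.6 and matplotlib 3.10.9.

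Deviations of replicate 1 from the group mean correlated between CD10+ and CD10- arrays at 0.184 in M1B26, 0.361 in MC26 and 0.634 in MCF10A-CT, so the numbers were taken to pair sorted arrays. With unsorted arrays the correlations were lower in each line, -0.015 to 0.12. The labels do not say what a number shares.

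The members and gene lists were chosen with earlier results of these data known. All members were named. Of the G1-S control list, up to 6 called genes with the smallest p per contrast could be named, plus CDK2, CDK4, CDK6 and RB1. For members whose group means spanned at least 1 on the log2 scale, the 3 genes with the most similar group means were named. Alternatives were another pseudocount (16), quantile normalization, centring, other filters, other choices of probe set, replicate blocks, only the arrays compared, no intensity trend and the omission of single arrays. Promoter windows were taken from RefSeq (GRCh38.p14).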

Additional observations from a re-analysis of the deposited data

Results flagged for a closer look

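The effect of sorting (sorted minus unsorted cells) differed between lines for 5 member and line pairs, by a test of the difference itself in limma. These comparisons were chosen after the values were seen. Between M1B26 and MCF10A-CT the difference of log2 differences was 4.32 ± 1.12 (adjusted p = 0.0237) for CCNE2, 1.80 ± 0.48 (adjusted p = 0.025) for CCNE1, 2.03 ± 0.55 (adjusted p = 0.0283) for CCND1 and 0.83 ± 0.24 (adjusted p = 0.0386) for CCND3. For CCNE2 the sorted minus unsorted difference was 1.57 in M1B26, which did not pass (0.45 without both unsorted replicate 1 arrays of M1B26 and MC26), and -2.75 in MCF10A-CT. Between MC26 and MCF10A-CT it was -3.08 ± 0.70 (adjusted p = 0.0202) for CDKN1C, which was higher in sorted MCF10A-CT cells (2.21) and gave -0.87 in MC26. The 4 M1B26 values did not pass without M1B26 unsorted replicate 1 (3.20, adjusted p = 0.203, for CCNE2, 1.23, adjusted p = 0.219, for CCNE1, 1.59, adjusted p = 0.215, for CCND1 and 0.69, adjusted p = 0.241, for CCND3), an array low in G1-S phase genes. The unsorted MC26 arrays read 36.4 and 195 for CDKN1C, and its value was -4.27 (adjusted p = 0.00261) without MC26 unsorted replicate 1 and -1.88 (adjusted p = 0.0440) without MC26 unsorted replicate 2. It did not pass without MCF10A-CT unsorted replicate 1 (-2.92, adjusted p = 0.0865) or replicate 2 (-3.24, adjusted p = 0.0685). Unsorted cells were frozen and not passed through the sorter, so handling and the sort cannot be told apart.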

How the results depend on the processing

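Of 34 member differences past the threshold, 9 kept direction and call under every alternative in which they were tested: CDKN1C against MCF10A-CT in both averages, in both MC26 sorted populations and in CD10- M1B26 cells, CCNE2 in both averages, CCNE1 in the MC26 average, and CDKN2D between sorted and unsorted cells. CDKN2D was left untested by the stricter filter and with the mean of its probe sets, which fell under the low-value level. Another 2 reversed with the mean of the probe sets, both of CCND3: -0.24 for sorted minus unsorted M1B26 cells and -0.55 for that difference minus the one in MCF10A-CT. The causes were not tested.

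For CD10+ against CD10- M1B26 cells, 1 member called became 0 with the mean of the probe sets, 4 with the replicate block on sorted arrays and 2 with only the arrays compared (CCND1 and CDKN1C), and 0 to 1 when single arrays were left out (0 without CD10- replicate 2 or either CD10+ array). For the M1B26 average, 5 members became 3 with quantile normalization, centring or the mean of the probe sets, and 3 to 5 without single arrays (3 without replicate 2 of unsorted or CD10+ cells of either M1B26 or MCF10A-CT, or without CD10- M1B26 replicate 1). For sorted against unsorted cells, 1 member became 2 with quantile normalization or centring (CCND3 added), 2 with the mean of the probe sets (CCND1 and CDKN1C, with CDKN2D left untested), 2 with the replicate block within line (CDKN1C added) and 0 with the stricter filter, which left out CDKN2D, and 1 to 3 without single arrays (3 without MC26 unsorted replicate 2). For the M1B26 CD10 difference minus that of MCF10A-CT, 0 became 2 with the replicate block on sorted arrays, and minus that of MC26 0 became 3. Both became 1 (CDKN1C) without both unsorted replicate 1 arrays of M1B26 and MC26, and 0 to 1 without single arrays. The block on all arrays ended the CCND1 call of the M1B26 average (adjusted p = 0.0526), and with the replicate block no other count of members moved by over 1.5 times.

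Over all genes, calls between CD10+ and CD10- M1B26 cells were 791, and 369 to 939 without single arrays or 568 to 2564 under the others. For the difference from MC26 they were 154 (68 to 1328), for that from MCF10A-CT 168 (69 to 1404), and for sorted against unsorted cells 1856 (1057 to 2632). CD10+ against CD10- cells gave 0 in MC26 (0 to 21) and 0 in MCF10A-CT (0 to 78), and the difference between these lines 0 (0 to 16). With 2 arrays a group, only large differences could pass within a line. CDKN2B and the CDKN2D values of unsorted MC26 and MCF10A-CT cells lay too close to background to be ordered.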
